A study of Populus davidiana with 6 samples.

Results

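Among the annotated genes of aspen leaves, 151 were present at a low level in control plants and were at least 2 times higher in every library from air-dried plants. They were chosen by their values in FPKM (sequenced fragments per kilobase of a transcript, relative to all fragments of its library), summed over all transcripts of a gene identifier in each library. A gene was kept if it had at least 1 annotated transcript, a mean of 1 to under 10 FPKM over the 3 control libraries, and a lowest air-dried value at least 2 times its highest control value. The 151 genes were drawn from 9334 annotated genes in the same control window, 38379 identifiers with an annotated transcript and 40537 identifiers in all. Because the air-dried and control values chose the genes, their rise is described here without a test.

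The 6 libraries came from leaves of Populus davidiana, an Asian aspen, cultivar Odae19, labelled as tolerant of drought. All plants were propagated in vitro from internodes on medium with naphthalene acetic acid, an auxin, and were about 6 weeks old. Plants for the 3 air-dried libraries were pulled from the medium, washed with sterile water and exposed to air for about 10 min. The labels call the 3 other libraries control and do not say whether those plants were also uprooted and washed, so the effects of uprooting, washing and drying cannot be told apart. Nothing states that the replicates were separate plants, so their spread may be technical.

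A leaf that loses water is known to raise abscisic acid, a hormone that closes the stomata and switches on protective genes. Uprooting and handling are also known to set off fast calcium and jasmonate signals in plants. Which of these functions the 151 genes serve is not stated here, because the files give 0 gene names and no table of names was used. For the same reason only 2 identifiers are printed, no sequence is shown, and the leaf label could not be checked against leaf marker genes.

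The rule confines the control means of the 151 genes to 1 to under 10 FPKM and sets no upper limit after drying, so the narrower range of the control levels is by construction. The median member had 3.19, 3.07 and 2.94 FPKM in controls 1, 2 and 3. In air-dried 1, 2 and 3 it had 17.1, 16.6 and 16.8 FPKM. Within a group, the 3 libraries thus differed by little at the median, and the 2 groups were far apart by construction. The summed level of all 151 genes was 562, 559 and 565 FPKM in the controls. After drying it was 4797, 4498 and 4695 FPKM. In bulk leaf RNA, more cells of a type and more RNA per cell cannot be told apart.

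**Figure D1:**
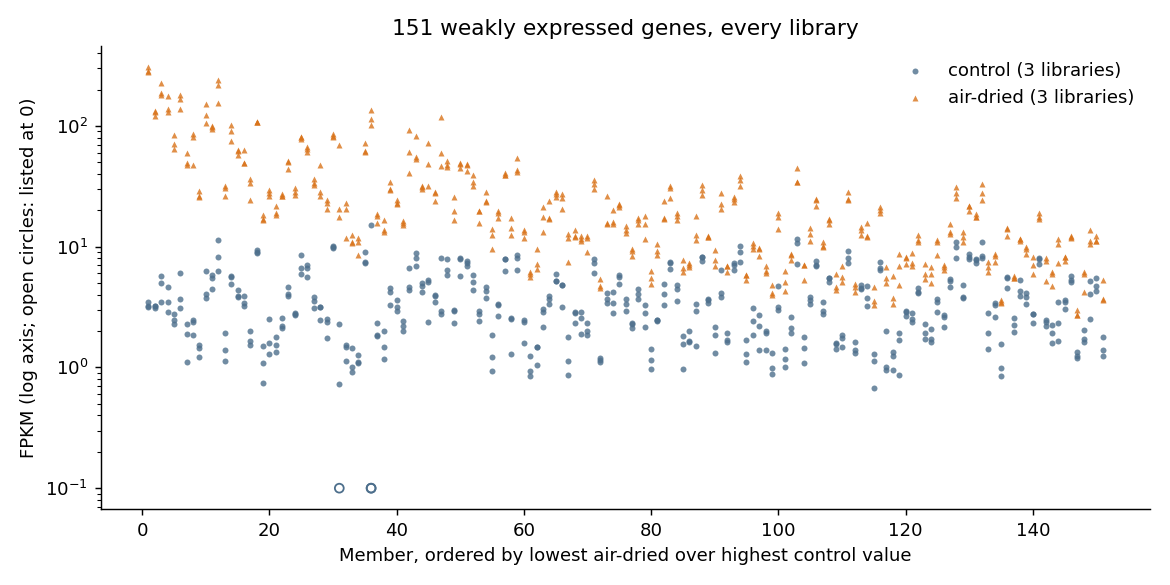
FPKM of each of the 151 genes in all 6 libraries (log axis), ordered by the ratio of the lowest air-dried to the highest control value. Circles are the 3 controls and triangles the 3 air-dried libraries; open circles at the bottom mark values listed at 0, which occur in 2 genes. The air-dried values fall from up to 307 FPKM at the left, while control values stay mostly between 1 and 10 FPKM, the range to which the rule confines the control mean.

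Among all 38379 identifiers with an annotated transcript, many of which are near 0, the median member moved from near the middle of the order to a higher place. Its percentile by level was 54.3, 53.8 and 53.8 in the controls. After drying it was 78.9, 78.8 and 78.3. The word weak therefore describes the control level in FPKM and not a place at the bottom of the order. After drying, 102 of the 151 genes had at least 10 FPKM in all 3 libraries, 59 had at least 20, 18 had at least 50 and 9 had at least 100. At the other end, 40 genes stayed under 10 FPKM in all 3 air-dried libraries.

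The size of the rise varied widely among the members. The ratio of the group means had a median of 4.74, with quartiles of 3.34 and 9.03, and ran from 2.22 to 88.7. It was under 3 in 25 genes, from 3 to under 4 in 30, from 4 to under 8 in 52, from 8 to under 16 in 26 and at least 16 in 18. For all 9334 genes of the control window the median ratio was 1.01, with quartiles of 0.883 and 1.16. The summed rise was spread over many genes, since the largest single rise held 7.02% of it and the 10 largest held 37.3%.

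**Figure D2:**
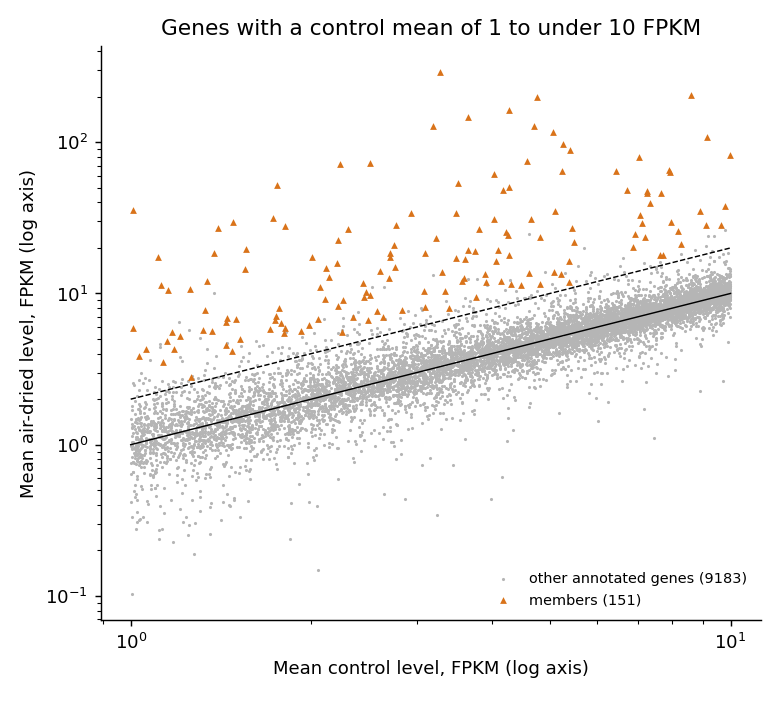
Mean control against mean air-dried level, both in FPKM on log axes, for genes with a control mean of 1 to under 10 FPKM. Triangles are the 151 members and grey points the other genes with an air-dried mean above 0; the solid line marks equal means and the dashed line a 2-fold difference, and the members lie above the dashed line at all control levels.

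The largest ratio of the lowest air-dried to the highest control value was that of POPTR_0009s16050. This annotated gene has a single listed transcript on the plus strand of chromosome 9 (12284978 to 12286144, in the coordinates of the files, whose genome build is not given in the sources used here). It had 3.20, 3.17 and 3.47 FPKM in the controls and 307, 284 and 281 FPKM in air-dried 1, 2 and 3. Its means were 3.28 ± 0.167 and 291 ± 14.3 FPKM (SD, n = 3), a ratio of 88.7. The groups were separated by a factor of 80.9 at their closest values; the spread within each group was small beside that gap.

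The second was POPTR_0005s26390, an annotated gene with a single listed transcript on chromosome 5 (24433589 to 24435408, minus strand). Its levels were 3.25, 3.08 and 3.24 FPKM in the controls and 121, 131 and 133 FPKM in air-dried 1, 2 and 3. Its means were 3.19 ± 0.0926 and 128 ± 6.18 FPKM (SD, n = 3), a ratio of 40.3. Its control level was close to that of POPTR_0009s16050, while its air-dried level was less than that gene's in every library.

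The ratio of the lowest air-dried to the highest control value was at least 16 in 11 genes, the 2 just named included. The next 3 in that order lay on chromosomes 14, 1 and 2. The gene on chromosome 14 went from 5.76, 4.97 and 3.51 FPKM in the controls to 227, 180 and 186 FPKM after drying. The identifier on chromosome 1 merges 2 annotated loci, so its values are sums over a stretch of genome; they went from 2.87, 3.51 and 4.60 FPKM to 138, 129 and 177 FPKM. The gene on chromosome 2 went from 2.75, 2.48 and 2.30 FPKM to 83.4, 70.9 and 64.3 FPKM, and in all 3 the groups were far apart. The 9 genes that reached at least 100 FPKM in every air-dried library were spread over 8 chromosomes, and their control means ran from 3.19 to 9.13 FPKM.

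At the threshold itself the members were not set apart from their neighbours in the order. The 5 members closest to it had ratios of 2.01 to 2.06, and the 5 genes just outside had ratios of 1.98 to 2.00. The last gene inside had 1.24, 1.80 and 1.39 FPKM in the controls and 3.61, 3.70 and 5.26 FPKM after drying. The first gene outside had 1.75, 2.29 and 2.29 FPKM in the controls and 5.24, 4.85 and 4.58 FPKM after drying. At the lower edge of the control window, the 2-fold criterion was met by 25 of 543 annotated genes with a control mean of 0.8 to under 1 FPKM (4.60%) and by 11 of 446 from 1 to under 1.2 FPKM (2.47%). At the upper edge, it was met by 9 of 1452 genes from 8 to under 10 FPKM (0.620%) and by 5 of 1253 from 10 to under 12 FPKM (0.399%).

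The 151 members made up 1.62% of the window, whereas 18 genes of the window met the mirrored criterion, with a lowest control value at least 2 times the highest air-dried value. Without asking for a 2-fold gap, all air-dried values lay above all control values in 1401 of the 9334 genes (15.0%) and below them in 949 (10.2%). Within the window, the share of genes meeting the criterion was 2.29% at a control mean of 1 to under 2 FPKM, 2.29% from 2 to under 3, 2.01% from 3 to under 5 and 0.902% from 5 to under 10. Below the window it was 4.07% from 0.5 to under 1 FPKM. Under 0.5 FPKM it was 6.99% of 5833 genes, which leave out annotated genes listed at 0 in all 6 libraries. In that class a gene listed at 0 in every control met the criterion if all its air-dried values were above 0. The share is thus not one of all annotated genes at that level. Above the window, the share was 0.535% from 10 to under 20 FPKM and 0.633% from 20 to under 50 FPKM. The median ratio of means among the genes meeting the criterion was 4.47, 5.35, 5.01 and 4.66 in the 4 classes of the window, against 3.41 from 10 to under 20 FPKM.

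**Figure D3:**
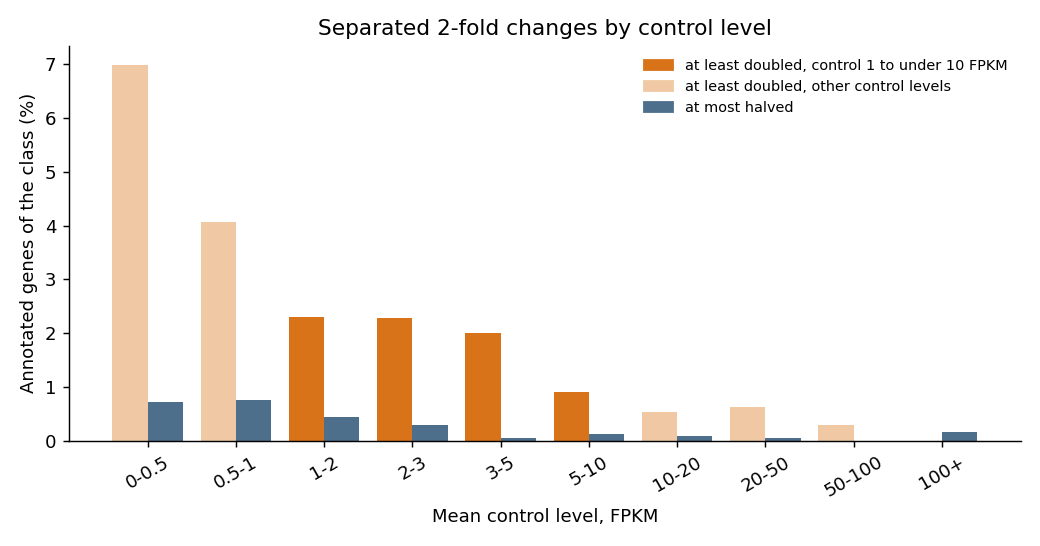
Share of annotated genes (%) by mean control level in FPKM whose lowest air-dried value was at least 2 times the highest control value (orange, dark within the window of 1 to under 10 FPKM) or whose lowest control value was at least 2 times the highest air-dried value (blue). The share of rises is 6.99% below 0.5 FPKM, where genes listed at 0 in all 6 libraries are left out. Within the window it falls from 2.29% at 1 to under 2 FPKM to 0.902% from 5 to under 10 FPKM.

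A model of all genes was fitted to see how the rule compares with a statistical call. In limma on log2(FPKM + 1) with Benjamini-Hochberg adjustment, 814 of 22559 tested genes were called higher after air-drying (3.61%) and 157 lower (0.696%), at an adjusted p under 0.05. Both counts fell when single libraries were left out. The fit called 524 genes higher and 54 lower without control 1, and 490 and 46 without control 2. Leaving out air-dried 2 gave 507 and 61, leaving out air-dried 3 gave 435 and 42, and the lower genes numbered 86 without air-dried 1. With libraries weighted by their quality (array weights) the counts were 1730 and 786. All 151 members were tested and 150 were called higher. Nothing is read from that count, because the rule used the same values. Within the control window, 354 of 9154 tested genes were called higher (3.87%) and 62 lower (0.677%), so the members were part of a larger group of called genes. The uncalled member, a single-transcript gene on chromosome 18 spanning 316 bp, had 15.2 FPKM in control 3 and was listed at 0 in the other controls. It had 102, 136 and 114 FPKM in the air-dried libraries.

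Replicate spread differed from gene to gene. The coefficient of variation over the 3 control libraries had a median of 13.9% among members and 13.0% among all genes of the window. Over the 3 air-dried libraries it was 9.66% among members and 13.2% in the window. Both values are shaped by the rule, which keeps genes whose groups do not overlap and whose air-dried level is high. The highest air-dried value was under 1.5 times the lowest in 131 of the 151 members, and at least 2 times the lowest in 4.

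The narrowest spread after drying was that of a gene on chromosome 10, with 107, 109 and 108 FPKM in the air-dried libraries and 9.42, 8.93 and 9.06 FPKM in the controls. The widest was that of a gene on chromosome 13, with 68.9, 17.8 and 20.4 FPKM after drying. Its control values were 2.30 and 0.728 FPKM in controls 1 and 2, and control 3 was listed at 0. A gene on chromosome 16 was next, with 119, 46.2 and 59.5 FPKM after drying and 8.01, 2.78 and 2.94 FPKM in the controls. Another, on chromosome 11, had 93.1, 40.8 and 60.9 FPKM after drying. In all 3 of these genes air-dried 1 was the highest library.

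Air-dried 1 was also the library most often at an end of its group. It held the highest of the 3 air-dried values in 62 members and the lowest in 59, and lay between the others in 30. In the whole window it was the highest in 35.5% of genes and the lowest in 40.7%. Among members, air-dried 2 was the highest in 37 and air-dried 3 in 52. The controls showed less of this, with control 1, 2 and 3 the highest in 52, 44 and 55 members.

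Where air-dried 1 lay went with the length of the gene. The genomic span, measured over all transcripts of a gene with introns included, had a median of 1311 bp in the 62 members with air-dried 1 highest and 1970 bp in the 59 with it lowest. The same order was seen in the window, with medians of 2905 bp and 3905 bp. Across the 151 members, the rank correlation of span with the log2 ratio of air-dried 1 to the mean of air-dried 2 and 3 was −0.25, and across the window genes it was −0.17. These are correlations across genes of the same 3 libraries, and genes are not independent replicates. The median ratio of means was 4.92 in the members with air-dried 1 highest and 5.35 in those with it lowest. The part of this length trend in the size of single rises was not tested.

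**Figure D4:**
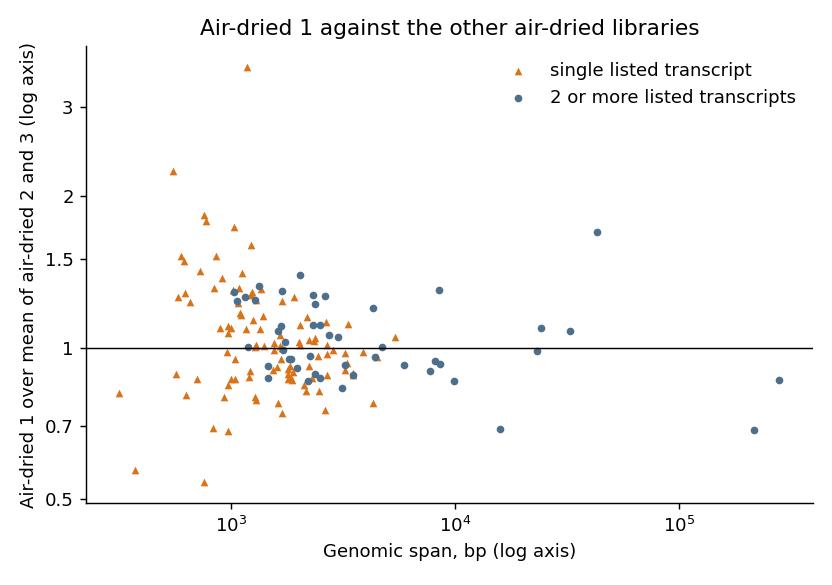
Ratio of a member's level in air-dried 1 to the mean of air-dried 2 and 3 (log axis) against its genomic span in bp (log axis). Triangles have a single listed transcript and circles 2 or more; the horizontal line marks a ratio of 1. Ratios above 1.5 occur in 9 members, and 8 of these span under 1500 bp.

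Members were short. Their median span was 1679 bp, with quartiles of 1107 and 2552.5 bp, against a median of 3400.5 bp in the window. Of the 151 members, 91 spanned under 2000 bp (60.3%), compared with 26.2% of the window. The share of window genes that were members was 3.01% for spans under 1000 bp, 4.15% from 1000 to under 2000 bp, 1.32% from 2000 to under 4000 bp, 0.294% from 4000 to under 8000 bp and 1.04% at 8000 bp or more. Genes outside the control window that met the 2-fold criterion were short too, so this was not particular to the members. Their median span was 1539.5 bp at a control mean under 0.5 FPKM and 1752.5 bp from 0.5 to under 1 FPKM. Annotated genes of these levels, without those listed at 0 in all 6 libraries, had medians of 1787 and 2156.5 bp. For genes meeting the criterion the median was 1951 bp from 10 to under 20 FPKM (4266 bp in all). From 20 to under 50 FPKM it was 1858 bp (4074 bp in all). Length was not part of the rule, but FPKM divides by transcript length, so a short gene rests on fewer fragments than a long one at the same FPKM.

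**Figure D5:**
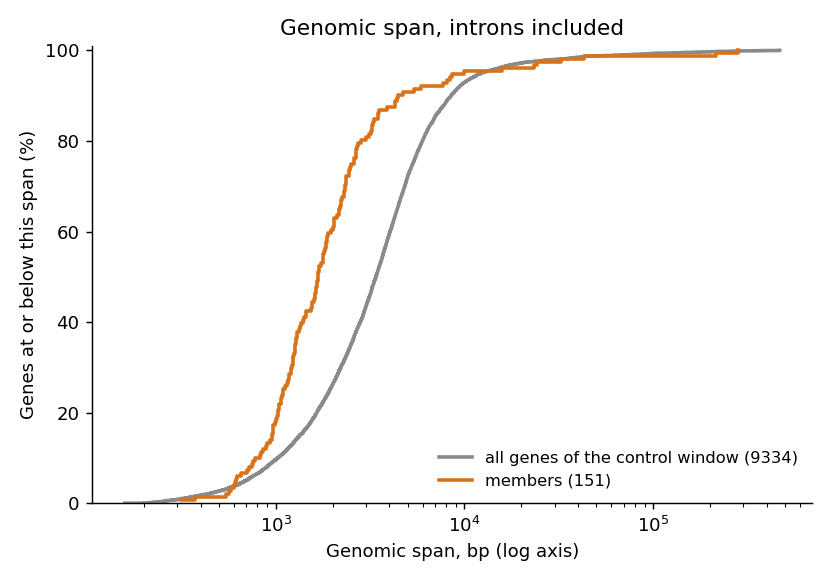
Cumulative share of genes (%) at or below a genomic span in bp (log axis) for the 151 members and for all 9334 genes of the control window. The members' curve lies to the left over most of the range, with medians of 1679 and 3400.5 bp.

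Most members had a single listed transcript. This was so for 104 of 151 members (68.9%) and for 2768 of the 9334 window genes (29.7%). The share was nearly level over the control classes among members, at 68.3%, 71.0%, 69.0% and 67.6% from the lowest class to the highest. In the window it fell from 48.0% at 1 to under 2 FPKM to 19.5% at 5 to under 10 FPKM. The share was also higher than in genes at the level the members reached after drying. With an air-dried mean of 10 to under 30 FPKM, 71.0% of 69 members and 15.1% of 7065 annotated genes had a single transcript. Among single-transcript genes the spans lay closer together, while the gap stayed wide among genes with 2 or more transcripts. Single-transcript members had a median span of 1319.5 bp against 1555 bp in the window, while those with 2 or more transcripts had 2475 bp against 4288 bp.

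In the 47 members with 2 or more listed transcripts, the leading transcript was usually the same before and after drying. It was the same in 40 of the 47 (85.1%), close to the 84.3% of 6566 such genes in the window. The leading transcript held a median of 79.2% of the gene's FPKM in the controls and 80.4% after drying. Of the 152 transcripts of these genes, 62 had a lowest air-dried value at least 2 times the highest control value, where 2.61% of all such transcripts in the window did. That rise is the one the rule used. The criterion was met by exactly 1 transcript in 27 of the 47 genes, by 2 or more in 12 and by none in 8.

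Among members, assembled transcripts, which the authors' software built from reads beside the annotated ones, held a somewhat larger part after drying. In the 45 members with both kinds, annotated transcripts held a median of 76.4%, 83.1% and 77.6% of the gene's FPKM in the controls. In air-dried 1, 2 and 3 the medians were 69.8%, 75.2% and 68.2%. All 3 air-dried values lay below all 3 control values, though air-dried 2 was close to control 1. In the 6422 such genes of the window the medians ran from 36.0% to 40.9% over the 6 libraries, and the groups overlapped. The rule used the sum of both kinds, so a gene could become a member through a rise of its assembled transcripts. With annotated transcripts alone 134 genes met the rule, 128 of them among the members. The shift in the members is therefore shaped by the rule, and nothing is read from its contrast with the window. Annotated transcripts held at least 50% of the rise in 27 of the 45 members, and in 2 of them the annotated transcripts together did not rise.

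A few identifiers merged several annotated loci. This was the case for 9 of the 151 members and for 805 window genes (8.62%). The 9 members held 24 annotated loci, of which 12 met the 2-fold criterion on their own. Exactly 1 locus met it in 3 of the 9 members, 2 or more in 4 and none in 2. For such an identifier the summed FPKM describes a stretch of genome and not a single gene. Of the 11 members spanning 8000 bp or more, 9 carried a locus number in place of an annotated name and 8 overlapped another listed gene.

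The members were spread over the genome. All 19 numbered chromosomes held at least 1 member, from 1 on chromosome 19 to 19 on chromosome 1, and 5 lay on unplaced scaffolds. The share of window genes that were members ran from 0.379% on chromosome 19 to 2.41% on chromosome 18. The plus strand carried 80 members and the minus strand 71. Consecutive members on a chromosome were a median of 1324.85 kb apart, and 8 of 127 such gaps were within 100 kb.

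Only 1 pair of members were direct neighbours. They lay on opposite strands of chromosome 3, 4836 bp apart. The first had 3.89, 3.82 and 4.40 FPKM in the controls and 57.4, 62.4 and 63.7 FPKM after drying. The second had 4.71, 3.77 and 3.22 FPKM in the controls and 12.1, 12.2 and 15.8 FPKM after drying. Both rose, by 15.2 and 3.42 times in the ratio of means.

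The genes flanking a member had no part in choosing it, but flanking genes that were members themselves were left out here. There were 294 different non-overlapping neighbours that were not members, of which 174 passed the filter of the limma fit. Of these 174, 10 were called higher (5.75%, limma with Benjamini-Hochberg adjustment), where 3.61% of all tested genes were. Among the neighbours 0 were called lower, where 0.696% of all tested genes were. All tested genes include the members, which hold 150 of the 814 genes called higher. The 5.75% and the 3.61% are therefore shares of unlike sets. Over the settings tried, 6 to 18 neighbours were called higher, and the share of all genes moved with the same settings. At an unadjusted limma p under 0.05, 25 of the 174 were higher and 6 were lower. The same counts were not made over all tested genes, so nothing is read from this split. The median log2 difference of the 174 neighbours was 0.019, with quartiles of −0.080 and 0.16, against 0.0037 for all tested genes. The median neighbour thus lay close to the median of all genes, and no test of the share called was made. In 13 members a gene not on the same strand overlapped the member. The libraries do not mark strand, so reads of such a pair cannot be told apart.

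Libraries as a whole differed in ways that touch these values. Control 3 and air-dried 1 lay between the other libraries on the first principal component of the tested genes (34.5% of the variance) and farthest apart on the second (27.0%). Without these 2 libraries, 220 genes met the rule, 144 of the 151 among them. Leaving out libraries can only loosen the ratio criterion, and no other pair was left out. The higher count therefore does not tell what these 2 libraries do to the values. With each library rescaled to the same sum of FPKM, 86 genes met it, 84 of them among the 151. The relative depth estimated from genes near the worth of 1 fragment ran from 0.971 to 1.12 of control 1, and absolute depth is not known. Only genes with an absolute log2 ratio under 0.35 to control 1 entered that estimate, so it could not show a larger difference in depth. The median level of the window genes lay between 4.31 and 4.59 FPKM in all 6 libraries. The summed FPKM ran from 1711808 to 4180878, of which transcripts up to 150 bp held 38.6% to 77.2%.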

How the data were processed

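Poly(A) RNA of 3 control and 3 air-dried leaf samples was made into TruSeq libraries and read as 100 bp paired ends on an Illumina HiSeq sequencer, per the labels' protocols. Groups were taken from the sample titles. The deposited files hold FPKM per transcript and library, per the file headers, without read counts or a stated scaling between libraries. FastQC, TopHat and Cufflinks are named in the submitters' processing notes, with neither version nor role; the genome build is not given in the sources used here. The files list 112919 transcripts, 45773 of them annotated.

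FPKM was summed per gene identifier with pandas 2.3.3 in Python 3.11.15. The limma 3.58.1 fit in R 4.3.3 (2-sided, eBayes with trend) used log2(FPKM + 1) of genes reaching 1 FPKM in 3 or more libraries, with the group as the sole term and Benjamini-Hochberg adjustment. Folds on that scale understate changes of low genes. The fit was tested on simulated data. Relative depth used annotated single-transcript genes over 1 kb with under 0.1 FPKM times kb in both libraries and an absolute log2 ratio under 0.35 to control 1.

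The members, lists and tests were chosen with earlier results of these data known. Without gene names, the rule for named genes gave the 2 members with the highest ratio of the lowest air-dried to the highest control value. Genes beyond these 2 are described by place alone and were picked after their values were seen. The gene lists by function and the marker lists could not be filled (0 filled). A value listed at 0 can be a failed estimate.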

Additional observations from a re-analysis of the deposited data

How the results depend on the processing

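The member count of 151 moved to 86 with libraries rescaled to a common sum of FPKM, 274 with a ratio of 1.5 and 100 with a ratio of 3. It ran from 159 to 178 when 1 library was left out, which can only loosen the ratio criterion. With annotated transcripts alone it was 134, 128 of them among the 151. The sum used for rescaling is mostly very short transcripts in several libraries. The median log2 ratio of members (2.25) was 2.62 with that rescaling, 2.20 to 2.39 without 1 library, 1.82 as the lowest air-dried over the highest control and 1.89 on the log2(FPKM + 1) scale.

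The 814 higher and 157 lower limma calls moved to 468 and 85 at a mean of at least 5 FPKM, with fewer genes tested, and to 486 and 52 with annotated transcripts alone. They moved to 1730 and 786 with array weights and to 435 to 581 and 42 to 120 without 1 library. With both control 3 and air-dried 1 left out, 543 genes were lower. The causes of the other shifts were not tested. Members called higher (150) were 131 of 144 tested with annotated transcripts alone, 118 of 119 at a mean of at least 5 FPKM, 138 to 147 of 151 without 1 library (138 without air-dried 3) and 149 to 151 in the other settings without a block. A replicate block in the model gave 497 higher genes, 60 lower genes and 143 called members. Of the genes beside members, up to 3 were called lower over all settings. Same-numbered samples correlated in their deviations from the group means at 0.24, −0.15 and 0.12, and differently numbered ones at −0.36 to 0.31. Deviations within a group of 3 sum to 0, so these values cannot decide on pairing. The labels number the samples without calling them pairs, so the main model used none.

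Leaving out control 3 and air-dried 1 together and keeping transcripts of at least 200 bp were alternatives chosen after seeing the data. Counts of members per gene list were not run, because the files give no names. Absolute depth is not known, so no limit can be set for a value listed at 0.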
